A study of Mus musculus with 6 samples.

Results

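The genes described here are 42 core antiviral interferon-stimulated genes, listed by symbol and found in the deposited gene table, where each of the 42 had 1 row among 22475 genes. They were measured by RNA-seq in Lin-, cKit+, Sca1+ cells sorted from mouse bone marrow, a gate in which blood stem cells and early progenitors are enriched. Every mouse carried FLT3-ITD on both alleles, an internal tandem duplication that leaves the receptor tyrosine kinase FLT3 active without its ligand. The control group (FLT3-ITD) carried wild type miR-155, and the second group, FLT3-ITD miR-155 KO (called KO here), lacked this microRNA on both alleles. Each group had 3 libraries, each made from the pooled RNA of 3 mice, and no group without FLT3-ITD was analysed here. No label used here gives the age of the mice. The comparison asks how loss of miR-155 relates to transcript levels in progenitors that carry FLT3-ITD.

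Type I interferons bind a receptor made of IFNAR1 and IFNAR2, whose kinases JAK1 and TYK2 start a signal to the nucleus. There a complex that holds STAT2 and IRF9 binds the interferon-stimulated response element (ISRE) in promoters and switches on genes that sense viral nucleic acids, block viral entry and replication, or conjugate the ubiquitin-like protein ISG15. In bone marrow, interferon is known to push quiescent stem cells into the cycle, and stem and progenitor cells are known to express part of this program without infection. MicroRNAs act mainly by pairing their seed, bases 2 to 8, with sites in the 3' untranslated region of a transcript.

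The ISRE is shown first, because it is the sequence through which these genes are known to be induced together. Promoters were RefSeq windows (GRCm38.p6) of 250 bases before to 50 bases after a transcription start. They were searched on both strands for an ISRE-like motif of 2 GAAA repeats with any 2 bases between them, whose matches can overlap one another. Of the 42 members, 34 matched a promoter entry by symbol, and Usp18, Dhx58, Zbp1, Mx1, Mx2, Rtp4, Ifi27l2a and Tor3a did not. A match was present in 12 of the 34 (35.3%), against 3.99% of 27025 genes and 3.44% of 32851 promoter windows. The whole windows of Rsad2 and Bst2 are shown because both genes passed the test when the replicate number was taken into account, and their matches differ in strand and number. The shorter stretches hold the matches of Ifih1 and Eif2ak2, which had positive differences, and of Ddx58, which had a negative one. Capitals mark bases in a match, and all are written 5' to 3' on the strand of the gene.

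Rsad2 (chr12:26456403-26456702, minus strand): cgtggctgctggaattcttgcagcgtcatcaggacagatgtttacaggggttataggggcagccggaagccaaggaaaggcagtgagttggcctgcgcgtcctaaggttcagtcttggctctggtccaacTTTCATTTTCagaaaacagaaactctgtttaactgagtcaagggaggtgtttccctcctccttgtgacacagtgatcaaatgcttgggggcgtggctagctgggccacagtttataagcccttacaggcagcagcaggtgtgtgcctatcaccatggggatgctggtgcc
Bst2 (chr8:71537423-71537722, minus strand): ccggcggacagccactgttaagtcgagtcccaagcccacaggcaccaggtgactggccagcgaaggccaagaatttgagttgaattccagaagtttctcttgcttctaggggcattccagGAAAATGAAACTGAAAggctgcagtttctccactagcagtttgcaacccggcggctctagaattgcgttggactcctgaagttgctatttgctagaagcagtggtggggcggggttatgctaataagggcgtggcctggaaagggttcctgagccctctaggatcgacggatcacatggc
Ifih1 (chr2:62646206-62646233, minus strand): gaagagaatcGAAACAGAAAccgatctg
Eif2ak2 (chr17:78882535-78882564, minus strand): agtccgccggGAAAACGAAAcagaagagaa
Ddx58 (chr4:40239804-40239833, minus strand): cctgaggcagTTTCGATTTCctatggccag

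In Rsad2 the match lay on the opposite strand, from 120 bases before the start. Bst2 held 2 overlapping matches that began 130 and 124 bases before the start, and Isg15 held 3, the most of any member, from 78 to 66 bases before it. The match of Ifih1 began at base 33 and that of Eif2ak2 at base 19 after the start. The 12 members with a match had a median log2 fold change (KO over control) of 0.27, and the 22 matched members without one had 0.31. The search allowed no other spacing of the repeats. The windows of Phf11d, Helz2 and Xaf1 hold GAAACGAAA, for example, and counted as having no match. These medians therefore cannot compare genes with and without an ISRE. Members with a match ranged from -0.11 (Ddx58) to 0.86 (Rsad2), and the 8 members without a promoter entry had a median of 0.78.

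**Figure D1:**
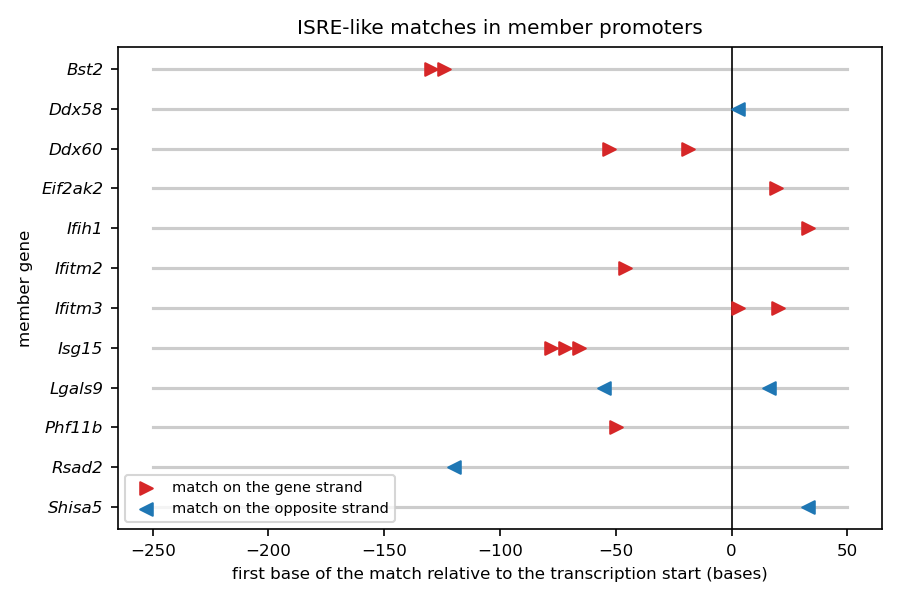
Position of each ISRE-like match in the promoter windows of the 12 members that held one, in bases from the transcription start (x axis), with 1 row per gene and a grey line for the window of 250 bases before to 50 bases after the start. Red triangles are matches on the strand of the gene and blue triangles on the opposite strand: the 3 of Isg15 begin 66 to 78 bases before the start, while those of Ifih1 and Eif2ak2 lie after it.

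The deleted microRNA itself was compared with the members through its seed. The guide strand is miR-155-5p (RefSeq, GRCm38.p6, chr16:84714143-84714165, plus strand), printed with the seed in capitals above the one matching site found in a member, with the match in capitals.

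miR-155-5p: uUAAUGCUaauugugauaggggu
Samhd1 site: ctgtaagaAGCATTAtctggtgt

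The longest annotated 3' untranslated region (GENCODE M21) was searched for AGCATTA, the reverse complement of the seed. It was found in 1 of 42 members (2.38%), Samhd1, from base 560 of 1866, and in 1098 of 11723 tested genes (9.37%). None of the 42 held the site with a further A at its end, which 395 of the 11723 genes (3.37%) held. The median length searched was 817 bases in the members and 1185 bases in the tested genes.

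Library totals lay between 6843129 and 9443615 counts, and the members had 64 to 12648 counts per library. Levels are given as CPM, in which TMM factors put all libraries on 1 scale. Each log2 fold change is KO over control with its standard error (SE), tested with edgeR's quasi-likelihood F test over 13217 genes with Benjamini-Hochberg adjustment and a threshold of 0.05. Each library is a separate pool by its label, and nothing says that pools came from separate litters or sorts, so p-values measure the spread between pools. Replicate numbers 1 to 3 recurred in both groups, and libraries of equal number deviated together from their group means over all genes (r = 0.57, 0.53 and 0.22). Libraries of unequal number had r from -0.51 to 0.13. Deviations from a group mean cancel out over its libraries, so positive r at equal numbers pushes r at unequal numbers down. The low values at unequal numbers are therefore no separate evidence of pairing. The highest value at unequal numbers, control replicate 3 with KO replicate 2, was close to the value for number 3, where the pairing is weakest. A second fit, which takes that number as a block, is given where it changed a call. At the deleted locus the host transcript Gm26667 had 33, 48 and 36 counts in the control and 4, 14 and 4 in the KO, a log2 fold change of -2.14 (adjusted p 0.274 in edgeR, and 0.0377 with the block).

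Most of the 42 genes had a somewhat higher level in the KO libraries, although the groups overlapped for 33 of them (12131 of all 13217 genes tested). All 42 passed the low-count filter, and 39 had a positive log2 fold change, against 50.2% of all genes tested. Their median log2 fold change was 0.37, against 0.0010 over all genes, and 11 of them exceeded 0.5, as did 2.53% of all genes. The 5 largest, between 0.85 and 0.93, belonged to Ifi44, Mx1, Usp18, Rsad2 and Ifi27l2a.

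No member passed the threshold on the group alone: 0 of 42 were called higher in edgeR (0.0151% of all genes were), with 13 at an unadjusted p under 0.05 (1.41% of all genes). DESeq2 and limma-voom also called 0, and in the authors' deposited table none of the 42 had an adjusted p under 0.05 and a positive fold change (0.0422% of the genes with an adjusted p there). With the replicate block 9 members rose, against 0.318% of all genes: Usp18, Rsad2, Ifi27l2a, Mx1, Cmpk2, Ifih1, Tor3a, Ifi44 and Bst2. None fell. The members, like the lists used here, were chosen with results of these libraries known, so these counts describe the libraries and are no independent evidence of direction.

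**Figure D2:**
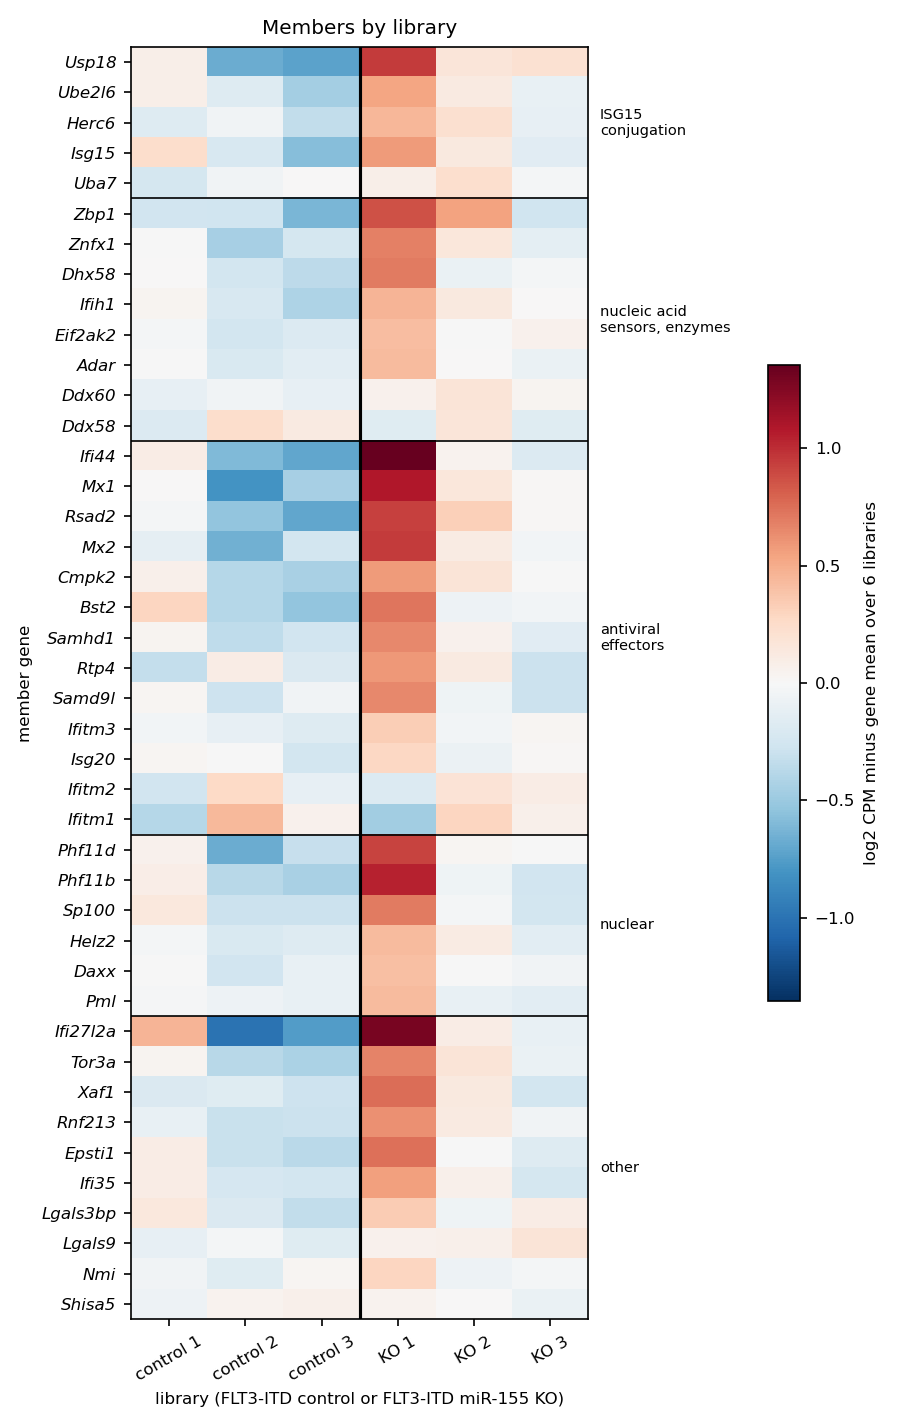
Log2 CPM of each member minus its mean over the 6 libraries (colour), with members in rows grouped by role and ordered by fold change, and libraries in columns. KO replicate 1 is the darkest red column, with the highest value of the 6 libraries for 35 of 42 members, while Ifitm1 and Ifitm2 are lowest in both libraries of number 1.

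The difference was uneven over libraries. The summed level of the 42 genes was 5564, 4994 and 4896 CPM in control replicates 1, 2 and 3, and 8226, 6066 and 5454 CPM in the KO replicates. KO replicate 1 stood above the others, and KO replicate 3 lay below control replicate 1, so the groups overlapped. KO replicate 1 was the highest of the 6 libraries for 35 members (25.9% of all genes), and control replicate 1 was the highest control for 31 (38.1% of all genes). For 9 members every KO library lay above every control library, as it did for 3.43% of all genes. These were Usp18, Ddx60, Eif2ak2, Mx1, Mx2, Rsad2, Ifitm3, Lgals9 and Rnf213.

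Within a group the members spread further than the groups differed. The range of log2 CPM over the 3 libraries had a median of 0.42 in the control and 0.74 in the KO, while the group means differed by a median of 0.37. The difference exceeded both ranges for 3 members, Usp18, Ddx60 and Lgals9. Compared within pairs of equal number, 32 members were higher in the KO in all 3 pairs, against 15.1% of all genes. The exceptions were Uba7, Ddx58, Isg20, Ifitm1, Ifitm2, Samd9l, Rtp4, Pml, Nmi and Shisa5. The median difference was 0.48 in the pair of number 1, 0.29 in that of number 2 and 0.21 in that of number 3. In the pairs of numbers 2 and 3 alone, 32 members were higher in both, against 26.8% of all genes.

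**Figure D3:**
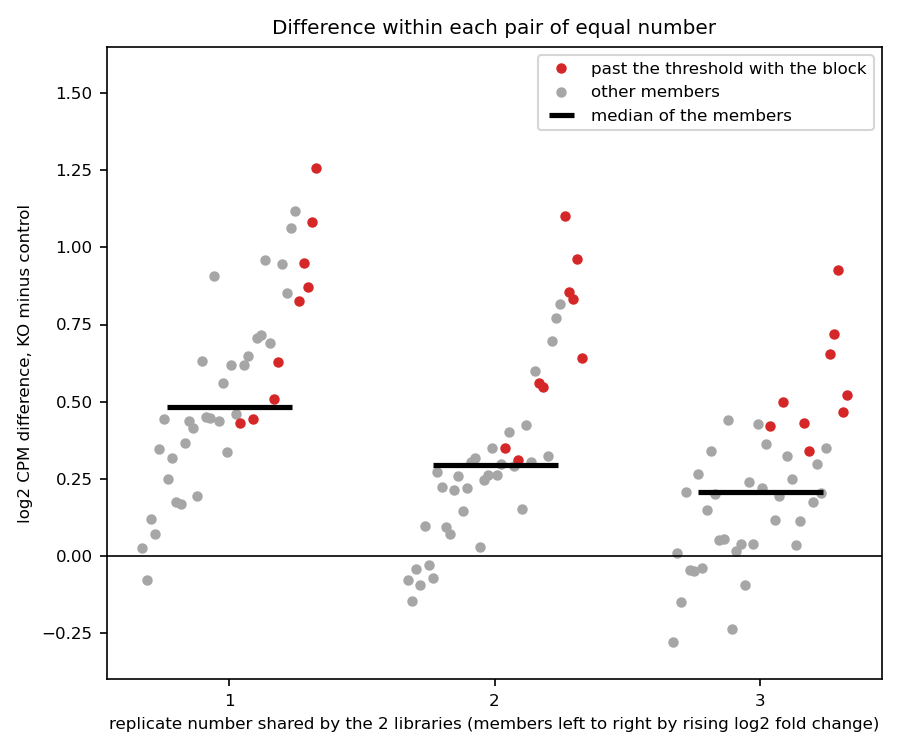
Difference in log2 CPM, KO minus control, within each pair of libraries of equal replicate number (x axis), with 1 point per member in each pair and black bars for the medians. The medians are 0.48, 0.29 and 0.21, and the 9 members in red, which passed the threshold with the block, lie above 0 in every pair. The fit with the block rests on these same differences, so their position is no separate evidence.

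The first group holds the genes of ISG15 conjugation. Isg15 encodes a ubiquitin-like protein, Uba7 and Ube2l6 its activating and conjugating enzymes, Herc6 the main mouse ligase, and Usp18 the protease that removes it and also restrains the interferon receptor. Usp18 (chr6:121245906-121270917, GRCm38) measured 50.2, 29.8 and 28.6 CPM in control replicates 1, 2 and 3 and 92.1, 53.3 and 54.7 CPM in the KO replicates. Its lowest KO library lay above its highest control library, and the pairs differed by nearly the same amount, 0.87, 0.83 and 0.93 (log2). The change on the log2 scale was 0.88 ± 0.29 (SE), with an adjusted p in edgeR of 0.883, and with the block Usp18 rose by 0.88 ± 0.077 (adjusted p 0.00314 in edgeR).

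Ube2l6 measured 42.5, 35.6 and 29.1 CPM in the control and 58.6, 43.8 and 37.5 CPM in the KO, with a log2 fold change of 0.38 (adjusted p 0.9996 in edgeR). Herc6 measured 62.8, 68.4 and 56.2 CPM in the control and 96.5, 82.1 and 65.5 CPM in the KO, with a log2 fold change of 0.38 (adjusted p 0.9996 in edgeR). For both genes KO replicate 1 was the highest library and control replicate 3 the lowest, and the groups overlapped. Isg15 itself (0.37) and Uba7 (0.18) had smaller log2 fold changes or wider errors. Of the 5 genes, 1 rose with the block (0.318% of all genes did) and 0 fell.

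The next group holds sensors of viral nucleic acid and enzymes that act on RNA. Ifih1 encodes MDA5 and Ddx58 encodes RIG-I, helicases that detect double-stranded RNA in the cytosol, and Dhx58 encodes their relative LGP2. Ifih1 (chr2:62595798-62646255) measured 109, 92.0 and 80.1 CPM in the control and 148, 117 and 107 CPM in the KO. Control replicate 1 lay slightly above KO replicate 3, so the groups overlapped, while the 3 pairs agreed closely (0.43, 0.35 and 0.42, log2). With the block Ifih1 rose by 0.40 ± 0.064 (SE; adjusted p 0.0377 in edgeR, and 0.9996 without the block).

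Ddx58, by contrast, had a negative value. It measured 84.3, 114 and 104 CPM in the control and 85.8, 108 and 86.1 CPM in the KO, or -0.11 ± 0.14 (SE) as log2 fold change (edgeR, adjusted p 0.9996), and the lowest values were in control replicate 1 and KO replicates 1 and 3. The difference between Ifih1 and Ddx58 was not tested. Dhx58 had a log2 fold change of 0.43, with 84.6, 48.5 and 50.7 CPM in the KO against 51.7, 43.5 and 40.5 CPM in the control.

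Zbp1, a sensor of Z-form nucleic acid that can trigger necroptosis, had the largest log2 fold change of this group. Its level was 23.7, 23.5 and 18.4 CPM in the control and 51.8, 41.5 and 23.5 CPM in the KO, so KO replicates 1 and 2 were above the control and KO replicate 3 lay within it. On the log2 scale the change was 0.83 ± 0.27 (SE; edgeR adjusted p 0.883), and with the block 0.79 ± 0.15 (adjusted p 0.0738 in edgeR), short of the threshold. Eif2ak2, which encodes the kinase PKR that halts translation on double-stranded RNA, measured 148, 126 and 132 CPM in the control and 201, 149.8 and 156 CPM in the KO (0.32, log2 fold change; adjusted p 0.9996 in edgeR). Its groups did not overlap, although KO replicate 2 lay only just above control replicate 1. Znfx1 (0.50), an RNA helicase-like sensor, and Adar (0.25), the enzyme that edits adenosine in double-stranded RNA, overlapped between groups. Ddx60 (0.18), a helicase, was small in size but separated the groups. Of the 8 genes, 1 rose with the block (0.318% of all genes did) and 0 fell.

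The effectors that block entry, replication or release of virus, 13 genes, held 5 of the 9 calls made with the block. Whether the role groups differ in calls was not tested. Rsad2 (chr12:26442746-26456452) encodes viperin, an enzyme that makes a chain-terminating nucleotide. It measured 50.1, 35.3 and 31.2 CPM in the control and 96.9, 64.0 and 51.6 CPM in the KO, or 0.86 ± 0.27 (SE) as log2 fold change, and its adjusted p in edgeR was 0.762. The lowest KO library was above the highest control library by a small step. With the block Rsad2 rose by 0.85 ± 0.082 (SE; adjusted p 0.00477 in edgeR), and the pairs differed by 0.95, 0.86 and 0.72 (log2).

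Cmpk2, a nucleotide kinase that makes the substrate of viperin, lies 12.8 kb from Rsad2 on chromosome 12, in the opposite orientation. It measured 60.4, 44.1 and 42.4 CPM in the control and 85.9, 65.2 and 57.2 CPM in the KO. Control replicate 1 exceeded KO replicate 3, while the 3 pairs were alike (0.51, 0.56 and 0.43, log2). With the block Cmpk2 rose by 0.50 ± 0.075 (SE; adjusted p 0.0299 in edgeR, and 0.9996 without it).

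Mx1 encodes a dynamin-like GTPase that traps viral nucleoproteins, and its relative Mx2 is annotated in GENCODE M21 as a polymorphic pseudogene. Mx1 (chr16:97447035-97462907) measured 124, 70.7 and 90.9 CPM in the control and 264, 138 and 126 CPM in the KO, with KO replicate 1 far above all others and the other 2 KO libraries close to control replicate 1. With the block Mx1 rose by 0.84 ± 0.12 (SE; adjusted p 0.0240 in edgeR, and 0.9996 without it). Mx2 had a log2 fold change of 0.73 with 17.6, 12.03 and 16.1 CPM in the control and 37.0, 20.7 and 18.6 CPM in the KO, and did not pass in either fit (adjusted p 0.189 with the block in edgeR). Both genes lie on chromosome 16, which also carries the deleted locus, 12.7 and 12.8 megabases away.

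Ifi44, an interferon-induced protein that restrains viral replication, had the largest fold change of all 42 on the group alone. It measured 113, 69.8 and 64.6 CPM in the control and 271, 109 and 92.8 CPM in the KO. KO replicate 1 was the highest library, and control replicate 1 exceeded the remaining KO libraries. On the log2 scale the change was 0.93 ± 0.42 (SE; edgeR adjusted p 0.9996), and with the block Ifi44 rose by 0.82 ± 0.14 (adjusted p 0.0463 in edgeR). Bst2 encodes tetherin, which holds budding virions at the cell surface and also marks plasmacytoid dendritic cells. It measured 104, 65.1 and 58.8 CPM in the control and 141, 80.8 and 83.1 CPM in the KO, with both libraries of number 1 high. With the block Bst2 rose by 0.42 ± 0.072 (SE; adjusted p 0.0475 in edgeR, and 0.9996 without it).

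The 3 Ifitm genes encode membrane proteins that hinder fusion of virus with the cell. Per length, they were among the most abundant members, at a mean of 320.2 FPKM (the authors' deposited values, scaled by gene length and library size) for Ifitm1, 176 for Ifitm2 and 232 for Ifitm3 in the control, against a median of 18.9 FPKM over the 42. Ifitm1 measured 253, 448 and 346 CPM in the control and 239, 404 and 348 CPM in the KO, so both libraries of number 1 were the lowest of their group. On the log2 scale the change was -0.076 ± 0.25 (SE; edgeR adjusted p 0.9996). Ifitm2 (0.052, log2 fold change) had its lowest values in the same libraries, while Ifitm3 (0.22) was highest in KO replicate 1, higher in the KO in all 3 pairs, and its groups did not overlap.

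In the rest of the group the log2 fold changes were 0.41 for Samhd1, which depletes the nucleotides that reverse transcription needs, and 0.26 for Samd9l, an inhibitor of translation in infected and haematopoietic cells. They were 0.31 for Rtp4 and 0.15 for Isg20, an RNA exonuclease. None of these 4 passed in either fit. Of the 13 genes, 5 rose with the block (0.318% of all genes did) and 0 fell.

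The components of nuclear bodies and transcription come next. Pml and Sp100 form nuclear bodies that silence incoming viral genomes, Daxx is their histone chaperone, and Helz2 is a helicase that acts as a nuclear receptor coactivator. Phf11d measured 21.9, 13.1 and 16.9 CPM in the control and 39.8, 21.3 and 20.9 CPM in the KO (0.65 ± 0.30, log2 fold change ± SE; adjusted p 0.9996 in edgeR, 0.117 with the block). Helz2 measured 134, 119 and 121 CPM in the control and 183, 148 and 124 CPM in the KO (0.28; adjusted p 0.9996). Daxx measured 61.9, 51.8 and 58.0 CPM in the control and 82.6, 62.0 and 60.2 CPM in the KO (0.25; adjusted p 0.9996). In all 3 genes KO replicate 1 was the highest library and KO replicate 3 lay within the control range. Phf11b (0.58), Sp100 (0.33) and Pml (0.14) were also highest in KO replicate 1, and Pml was lowest in KO replicate 3. The 6 genes had a median difference of 0.50 (log2) in the pair of number 1 and 0.047 in that of number 3. None of the 6 passed in either fit.

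The last group holds regulators and members of other function. Tor3a encodes a torsin-family ATPase of the endoplasmic reticulum. It measured 64.8, 48.7 and 46.9 CPM in the control and 100.3, 71.3 and 59.4 CPM in the KO, with control replicate 1 above KO replicate 3. With the block Tor3a rose by 0.51 ± 0.084 (SE; adjusted p 0.0430 in edgeR, and 0.9996 without it). Ifi27l2a, a small hydrophobic protein strongly induced by interferon, measured 127, 46.0 and 54.4 CPM in the control and 225, 98.9 and 85.7 CPM in the KO. Control replicate 1 was above 2 of the 3 KO libraries, the widest spread among controls of any member, and the SE was 0.49 on the group alone and 0.094 with the block. With it Ifi27l2a rose by 0.86 (adjusted p 0.00785 in edgeR, and 0.9996 without it).

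Rnf213, a very large ring-finger ATPase that ubiquitinates pathogen surfaces, had the most counts of the members, on a long transcript. It measured 1177, 1027 and 1029.9 CPM in the control and 1934, 1376 and 1225 CPM in the KO (0.49 ± 0.18, log2 fold change ± SE; adjusted p 0.9996 in edgeR, 0.148 with the block), and the groups did not overlap. Lgals9, a secreted galectin, measured 125, 132 and 120.2 CPM in the control and 140.1, 141 and 152 CPM in the KO (0.20; adjusted p 0.9996). It was the one named gene of this group whose highest library was KO replicate 3. Shisa5, a membrane protein linked to p53-dependent apoptosis, measured 233, 254 and 257 CPM in the control and 254, 246 and 231 CPM in the KO, or -0.025 ± 0.077 (SE) as log2 fold change (edgeR, adjusted p 0.9996). The others had log2 fold changes of 0.14 for Nmi, 0.28 for its partner Ifi35, 0.49 for the pro-apoptotic Xaf1, 0.25 for Lgals3bp and 0.42 for Epsti1. Of the 10 genes, 2 rose with the block (0.318% of all genes did) and 0 fell.

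**Figure D4:**
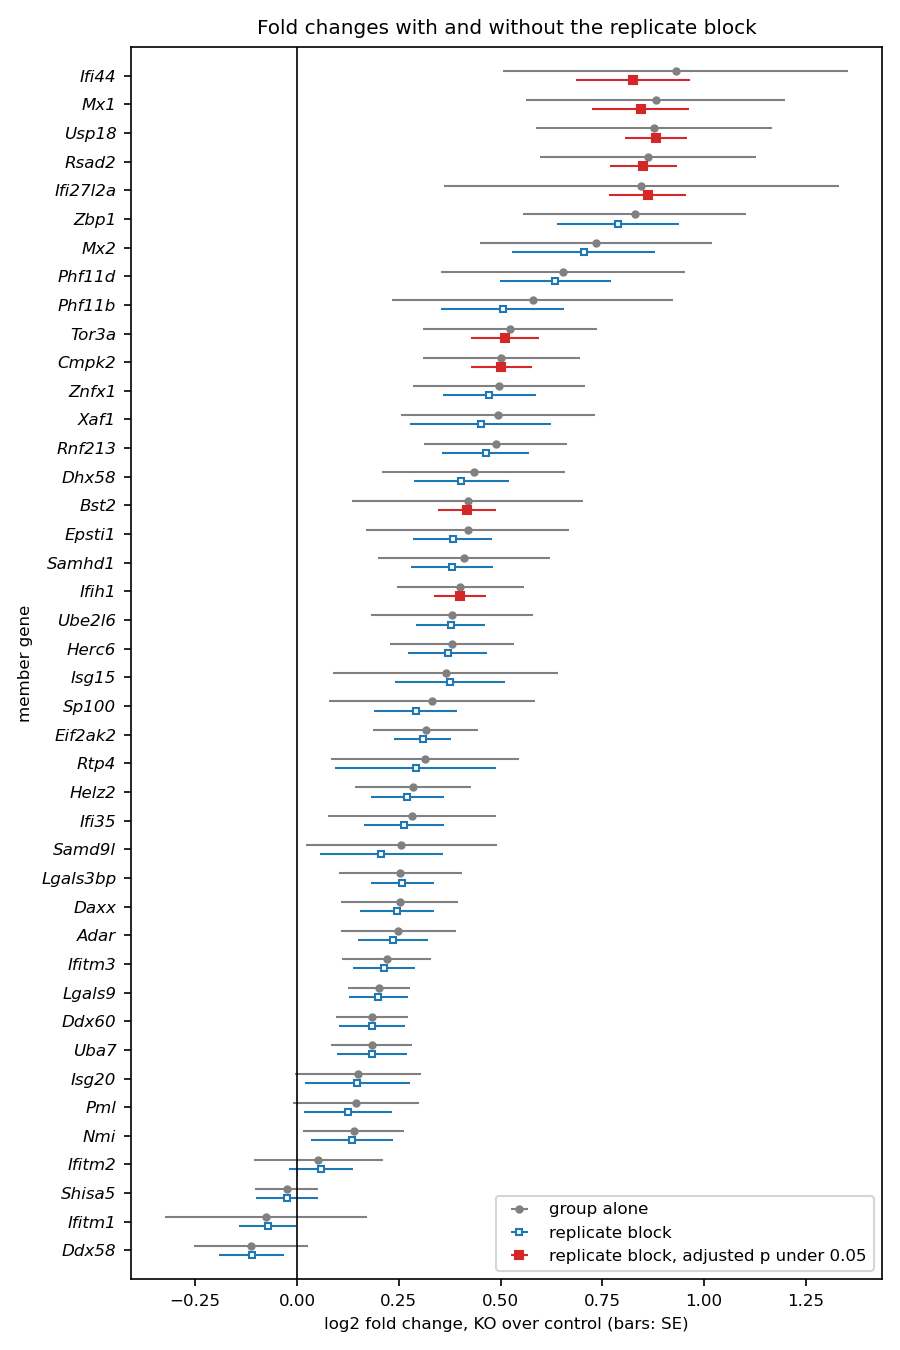
Log2 fold change of each member, KO over control (x axis), with SE as bars, from the fit on the group alone (grey) and with the replicate number added as a block (blue, or red where the adjusted p was under 0.05). Most values move little between fits, though Ifi44 goes from 0.93 to 0.82. The bars with the block are shorter for all 42 members, and 9 are red.

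The block changed the errors more than the sizes. The SE was smaller for all 42 members, with a median ratio of 0.53, and the median log2 fold change was 0.37 in both fits. Single sizes moved in either direction, such as Ifi44 from 0.93 to 0.82 and Ifi27l2a from 0.85 to 0.86. The blocked fit had 2 residual degrees of freedom, against 4 without the block. Leaving out both libraries of number 1, the pair with the largest difference for 31 members, gave a median of 0.25, and leaving out KO replicate 1 alone gave 0.15. Without that pair and without a block, 1 member, Usp18, was called higher in edgeR (0.0300% of all genes). Without it and with the block 6 were (0.390% of all genes): Usp18, Rsad2, Mx1, Cmpk2, Ifi44 and Ifi27l2a, all among the 9.

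Some markers of other cell types were high in the libraries of number 1. Macrophage markers (11 of 12 listed genes in the table) summed to 146 to 954 CPM in the control and 213 to 706 CPM in the KO, with control replicate 1 at 954 and KO replicate 1 at 706. Plasmacytoid dendritic cell markers (10 of 10, Bst2 among them) summed to 913 to 1337 CPM in the control and 945 to 1796 CPM in the KO. Irf8 supplied 603 to 1408 CPM of these sums. Without Irf8 and Bst2 the other 8 genes summed to 274, 246 and 279 CPM in the control and 247, 198 and 235 CPM in the KO. In that sum control replicate 1 was no longer the highest control. Tcf4 supplied most of it, at 189, 200 and 216 CPM in the control and 180, 167 and 190 CPM in the KO. Relative to each gene's mean, the median of the tested markers (8, Irf8 and Bst2 included) was highest in KO replicate 1 (0.68, log2) and control replicate 1 (0.30). Apart from Irf8 and Bst2, Ly6d measured 30.03, 22.2 and 31.2 CPM in the control and 11.9, 6.14 and 16.9 CPM in the KO. With the block Ly6d fell (log2 fold change -1.31, adjusted p 0.0235 in edgeR, and 0.518 without it). Pacsin1 had a positive log2 fold change of 0.72 and did not pass in either fit. Conventional dendritic cell markers (9 of 9) reached 13345 CPM in KO replicate 1, against 5054 to 7222 CPM in the other 5 libraries. Most of that sum came from Cd74, H2-Aa and H2-Ab1, at 5768, 3655 and 2710 CPM in KO replicate 1. Relative to each gene's mean, the median of the 9 markers was also highest in that library (0.96, log2). The defining genes Vcam1, Csf1r, Siglech and Itgax were above 0 in every library. In bulk RNA, fewer cells of a type and less RNA per cell cannot be told apart, and the part of these cells in the members' values was not tested.

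Stem and progenitor markers (10 of 10, none at 0) summed to 1842 to 2560 CPM in the control and 1805 to 2401 CPM in the KO, and were lowest in the libraries of number 1. The gate genes were present in every library: Kit lay between 241 and 387 CPM and Ly6a between 105 and 127 CPM. Plasma cell markers (7 of 8 listed) summed to 7362 to 10719 CPM in the control and 1446 to 3998 CPM in the KO. Of the 7 genes 1 fell in edgeR and 6 with the block, against 19 and 138 of all 13217 genes tested. B cell markers summed to 55.4, 40.2 and 57.2 CPM in the control and 30.7, 28.4 and 41.5 CPM in the KO, lower in the KO in each pair although the groups overlapped. Erythroid markers summed to 75.1 CPM in control replicate 1 and 51.8 CPM in KO replicate 1, against 9.72 to 21.04 CPM in the other 4 libraries, so they too were highest in the libraries of number 1. T and NK cell markers lay between 83.5 and 102 CPM, with Gzma at 0 in some of the libraries. Cr2, Pax5 and Fcer2a of the B cell list and Hba-a1 and Hba-a2 of the erythroid list were also at 0 in some libraries. Neutrophil and monocyte markers summed to 1572 to 2296 CPM in the control and 1693 to 2176 CPM in the KO, sums carried by Ly6c2 and Ccr2. For 8 of the 11 genes every KO library lay below every control library, as it did for 4.79% of all genes tested: Ly6g, Camp, Ngp, Ltf, Retnlg, S100a8, S100a9 and Mmp8. S100a9, for example, measured 257, 203 and 205 CPM in the control and 115, 172 and 106 CPM in the KO (log2 fold change -0.76, adjusted p 0.457 in edgeR), and of the 8, the 7 that could be tested did not pass in either fit. The part of these lists in the members' values was not tested either.

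**Figure D5:**
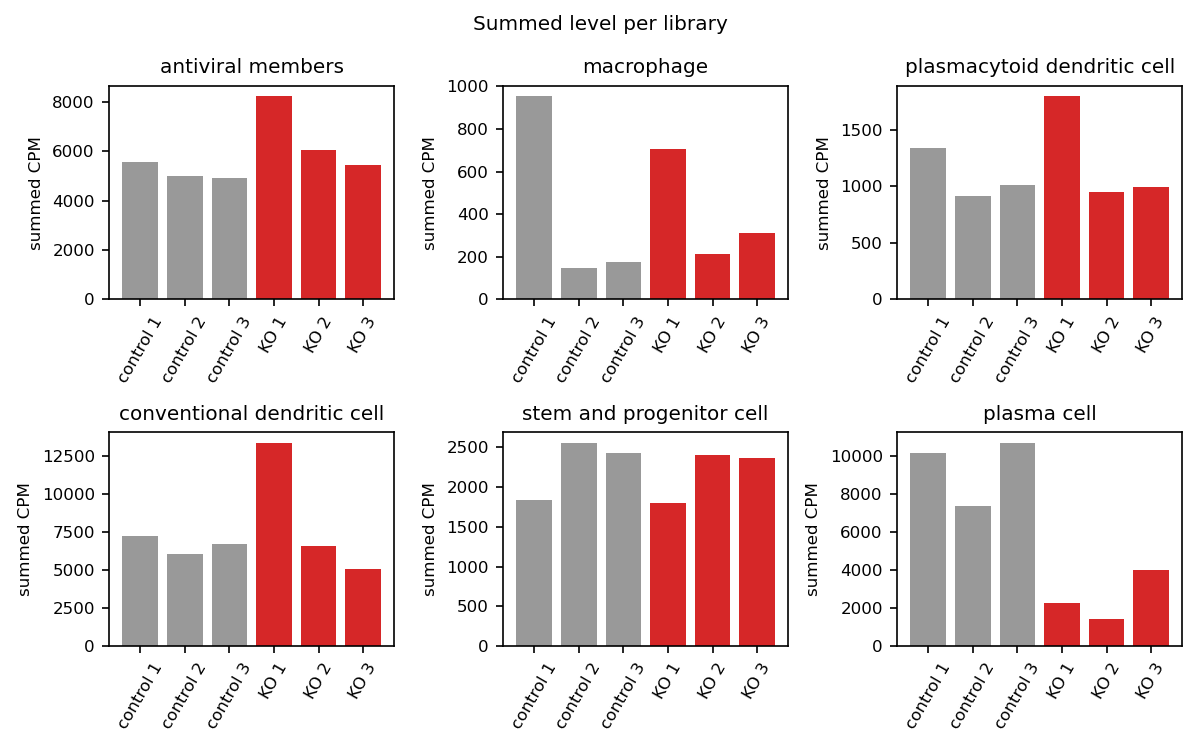
Summed CPM (y axis, from 0) of the 42 members and of 5 lists of cell type markers in each library, controls in grey and KO in red. The members reach 8226 CPM in KO replicate 1, and the macrophage list is high in both libraries of number 1, at 954 and 706 CPM.

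The rest of the interferon pathway was read from a list of 62 genes, of which 46 were in the table and 41 passed the low-count filter. Of the 41, 35 had a positive log2 fold change, against 50.2% of all genes, with a median of 0.13. On the group alone 0 passed in edgeR, and 0 passed by DESeq2 or limma-voom. In edgeR 2 were higher at an unadjusted p under 0.05, against 1.41% of all genes. With the block 1 rose, against 0.318% of all genes, and 0 fell. The ligands were barely detected: 5 were in the table and none could be tested. Ifnb1, the gene of interferon beta, had 0, 0 and 0 counts in the control and 1, 1 and 0 in the KO, and Ifng, the gene of interferon gamma, 6, 19 and 10 and 6, 16 and 8. Ifna2, of the interferon alpha genes, had 0, 0 and 0 counts in the control and 2, 1 and 1 in the KO, and Ifna4 and Ifnz had at most 1 count in a library. A count of 0 allows up to 3 counts, or 0.325 to 0.459 CPM in these libraries, for counting error only.

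The receptor and kinase genes did not pass in either fit, with log2 fold changes of 0.24 for Ifnar1, 0.12 for Ifnar2 and 0.27 for the kinase gene Jak2. Ifnar1 and Ifnar2 lie on chromosome 16 between the deleted locus and Mx1, and any effect of that position was not tested. Of the kinases that serve the type I receptor, named here after their values were seen, Tyk2 had 0.18 and Jak1 -0.058, and Jak1 was lower in the KO in all 3 pairs (-0.072, -0.013 and -0.091, log2). Irf7, the transcription factor that amplifies interferon production, measured 185, 109 and 103 CPM in the control and 382, 204 and 164 CPM in the KO, with KO replicate 3 below control replicate 1. With the block Irf7 rose by 0.88 ± 0.085 (SE; adjusted p 0.00477 in edgeR, and 0.9996 without it), a size like that of Usp18 and Rsad2. Stat2 (0.39) and Irf9 (0.33), which encode parts of the complex that binds the ISRE, had positive log2 fold changes and did not pass. Irf1 (0.39) separated the groups, at 124, 154.8 and 147 CPM in the control and 177, 213 and 169 CPM in the KO, and its adjusted p was 0.799 in edgeR and 0.0994 with the block.

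Among the sensing adaptors and kinases, Mavs, the adaptor of MDA5 and RIG-I, had a log2 fold change of 0.15 and Tbk1, the kinase of IRF3, one of 0.14. Among the negative regulators, Trex1, a DNA exonuclease, had 0.50, Ptpn6 0.12 and Socs1 0.25, the last at 3.25 to 5.85 CPM. None of these 5 passed in either fit.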

How the data were processed

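RNA-seq of 3 FLT3-ITD and 3 FLT3-ITD miR-155 KO libraries was read from 1 deposited table. The authors deposited whole-number counts per gene, unnormalized per the file headers. The authors' FPKM values, deposited beside the counts, served only to compare levels between genes. Their log2 fold changes and adjusted p-values are the authors' deposited comparison. The submitters' processing notes name mm10, DESeq2 1.10.1 and Novoalign 2.08.01. Of the read counter and its strand setting nothing is given in the sources used here, so counts of Ifitm1, Ifitm2, Ifitm3, Mx1, Mx2, Phf11b, Phf11d and Ifi27l2a (near-identical relatives), of Znfx1 (antisense Zfas1, 806 counts on average) and of Uba7 (Gm20661, 99.8) are uncertain.

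Counts were fitted with edgeR 4.0.16 (R 4.3.3; TMM; filterByExpr with a minimum count of 10 and a minimum total of 15), group alone, over 13217 genes. DESeq2 1.42.0, limma 3.58.1 voom, other size factors, other filters, left-out libraries and the replicate block were alternatives. The edgeR fits with and without the block, DESeq2 and voom were tested on simulated counts that held no effect of the replicate number. That test therefore cannot check the blocked fit where such an effect is present. Positions came from GENCODE M21 (GRCm38, the assembly of mm10). Pairing rests on the deviations of libraries of equal number, since no label states a shared litter or day. Named are all members, with every library shown for the 3 smallest p of each role group, those past the threshold with the block and those with a negative value. The 2 smallest p of each group of pathway genes were named with Stat2, Irf7, Irf9, Ifnar1, Ifnar2 and Socs1; another gene under this rule is not reported here. Members and lists were chosen with earlier results of these data known. Counts of a gene whose groups separate, values at a number and lists of exceptions name genes after their values were seen.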

Additional observations from a re-analysis of the deposited data

How the results depend on the processing

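The count of members called higher, 0, became 9 with the replicate block. It was 1 when both libraries of number 1 were left out, and 6 when the replicate block was used on numbers 2 and 3 only. The last combination was chosen after seeing the data, as were the members' median and their count by pairs with a number left out. The count stayed 0 in every other setting run, and the count of members called lower was 0 in all of them. Over all genes tested, 2 were higher and 19 lower. With the replicate block there were 42 higher and 138 lower, DESeq2 called 8 and 123, and testing genes of any count called 4 and 93. Dropping the libraries of 1 number gave 4 and 23 for number 1, 0 and 10 for number 2, and 0 and 6 for number 3. With the block and without number 1 the counts were 52 and 153. Leaving out 1 library gave 0 to 3 higher and 0 to 24 lower genes, with fewer samples in each fit. Of the other pathway genes, 1 became called higher with the replicate block, and the block moved the calls of the 9 members, Irf7, Gm26667 and Ly6d alone among the genes named with values. Why these counts moved: the cause was not tested.

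The members' median log2 fold change of 0.37 lay between 0.15 (without KO replicate 1) and 0.52 (without KO replicate 3) when 1 library was left out, and was 0.25 without both libraries of number 1. In 42 members under 16 alternatives, 639 of 672 values kept their direction and side of the threshold, 16 newly passed and 17 reversed. The reversed values were all of members that passed nowhere. When 1 library was left out, Ifitm1 lay at -0.26 to 0.15, Ifitm2 at -0.052 to 0.22, Samd9l at -0.068 to 0.44, Pml at -0.058 to 0.25, Sp100 at -0.0010 to 0.52 and Shisa5 at -0.064 to 0.013. Without both libraries of number 1, Samd9l was -0.0076, Rtp4 -0.022 and Pml -0.038, and with the block as well -0.0067, -0.027 and -0.038. Without both of number 3, Ifitm2 was -0.019 and Shisa5 0.041. The lowest count of a member in a library was 64.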

Other observations

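A second promoter motif was counted in the same windows, the gamma-activated sequence, written TTCNNNGAA, which reads the same on both strands. It was present in 8 of 34 matched members (23.5%), Adar, Bst2, Eif2ak2, Ifi35, Ifitm3, Isg20, Samhd1 and Shisa5, against 9.55% of 27025 genes. In Bst2, Eif2ak2, Ifitm3 and Shisa5 the window held both motifs.

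Several members lie within 200 kb of each other. Rsad2 and Cmpk2 (chromosome 12), which both rose with the block, had pair differences of 0.95, 0.86 and 0.72 and 0.51, 0.56 and 0.43 (log2). Phf11b and Phf11d, 6.06 kb apart on chromosome 14, had 0.95, 0.32 and 0.17 and 0.85, 0.70 and 0.30. Mx1 and Mx2, 72.4 kb apart, had 1.08, 0.96 and 0.47 and 1.06, 0.77 and 0.20. Ifitm1, Ifitm2 and Ifitm3, within one cluster on chromosome 7, had -0.079, -0.15 and 0.0093, 0.069, -0.094 and 0.21 and 0.37, 0.071 and 0.20.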
